A study of Mus musculus with 18 samples.

Results

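The genes described are the clustered histone genes of the mouse: protein-coding genes whose symbol begins with Hist1h, Hist2h, Hist3h or Hist4h, the names that mark the 4 genomic histone clusters. A gene was taken as a member when at least 3 of the 18 libraries held 10 or more of its reads, and 19 of the 67 annotated genes met that rule. Across the whole data set, 15607 of 54446 gene IDs met the same rule. The members comprised 4 of 6 genes for the linker histone H1, 4 of 18 for H2A, 4 of 18 for H2B, 1 of 12 for H3 and 6 of 13 for H4. By location, 14 of the 54 genes of the Hist1 cluster on chromosome 13 were members, with 3 of 10 in the Hist2 cluster on chromosome 3, 1 of 2 in the Hist3 cluster on chromosome 11 and the 1 gene of the Hist4 cluster on chromosome 6. The members closest to the limit were Hist2h4, with 10 reads in 3 libraries, Hist1h2bh in 4 and Hist1h4h in 7. Just outside it were Hist1h3d, Hist1h3f and Hist1h3i, each reaching 10 reads in 2 libraries.

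The study sorted osterix-derived cells, the descendants of cells that had made osterix (Sp7), a regulator that directs cells to become osteoblasts, from mice at postnatal day 21. Controls, given as wild type, were set against a conditional knockout of Pth1r, the parathyroid hormone receptor, made in osteoprogenitors. From each genotype came marrow stromal cells negative for GFP and positive for a marker written Tm (here marrow), bone cells positive for GFP (GFP+ bone), and bone cells negative for GFP and positive for Tm (GFP- bone), with 3 libraries in each of the 6 groups. The gene that drives deletion, the construct behind GFP and Tm, and whether the 3 libraries of a group came from separate mice are not given in the sources used here. A p-value therefore reflects only how far these libraries scattered, which may be technical.

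Core histones H2A, H2B, H3 and H4 form the spool on which DNA is wound, and H1 binds the DNA where it enters and leaves that spool. Most clustered histone genes are transcribed in S phase, when new DNA must be packaged, and their mRNAs end in a conserved stem-loop instead of a poly(A) tail. Some can also give longer, polyadenylated mRNAs, above all in cells that have stopped dividing. The library kit named in the labels, SMART-Seq v4, primes cDNA on poly(A). The part of that priming in the levels given here was not tested.

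The stem-loop is shown first because it sets these genes apart from nearly all others and marks where the replication-dependent mRNA would end. The 16-base histone stem-loop pattern, which starts with GG, ends with CC and has the pyrimidine-rich core CTTTT from the base at position 5 on, AG at positions 11 and 12 and any base elsewhere, was searched on both strands within 100 bases after the stop codon. On the coding strand it was present in 44 of 52 clustered histone genes with such a window and in 3 of 20931 other coding genes (0.014%). It was found in neither set on the opposite strand. Each line gives 5′ to 3′ sequence of GENCODE M21 transcripts (GRCm38, mm10), with the 16 matched bases in capitals; the first 4 genes rose in knockout GFP+ bone and the last 2 fell there.
Hist1h1c: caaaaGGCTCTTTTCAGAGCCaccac
Hist1h1e: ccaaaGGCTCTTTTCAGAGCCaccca
Hist1h2be: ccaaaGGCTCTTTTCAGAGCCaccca
Hist1h2ac: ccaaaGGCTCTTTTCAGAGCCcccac
Hist1h2ae: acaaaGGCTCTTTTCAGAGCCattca
Hist1h4d: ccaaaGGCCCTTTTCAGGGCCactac
They lie at chr13:23739507-23739532 (plus strand) for Hist1h1c, chr13:23621777-23621802 (minus) for Hist1h1e, chr13:23585526-23585551 (minus) for Hist1h2be, chr13:23683472-23683497 (minus) for Hist1h2ac, chr13:23570663-23570688 (minus) for Hist1h2ae and chr13:23581945-23581970 (plus) for Hist1h4d, all in the 3′ UTR. Hist1h2ae, which fell, has the same 16 bases as the 4 genes that rose, and Hist1h1e and Hist1h2be are identical over all 26 bases printed.

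Most members with the pattern had long annotated sequence after the stem-loop. The count rule takes no account of length, and annotated transcripts of members were longer: a median of 1560 bases against 483.5 for non-members. Of 15 members with the pattern, 14 had more than 100 annotated transcript bases after it, with a median of 1153 and a range of 46 to 4884. Of 29 non-members with it, 8 had more than 100, with a median of 37 and a range of 3 to 1167. The only member below 100 was Hist1h4h, at 46. The limit of 100 was chosen after the distances had been seen, and annotation of such tails may itself rest on RNA data, so no test is given. Hist1h1b and Hist1h2ak have no annotated 3′ UTR, and no match lay in the windows of Hist1h2bc and Hist2h2be. Members also shared less sequence with other genes: a median of 18.8% of their 50-base stretches occurred in another gene's transcripts, against 70.3% for the 48 non-members. Reads in such stretches can be lost or misplaced, so a low count of a non-member is uncertain. The limit also covers some members. The share was 50% or more for 2 of them, Hist2h3c2 (63.5%) and Hist1h2ak (57.0%). Hist1h4h (45.8%) and Hist1h2ae (43.2%) came next. Counts and calls given below for these genes may include reads of other copies.

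**Figure D1:**
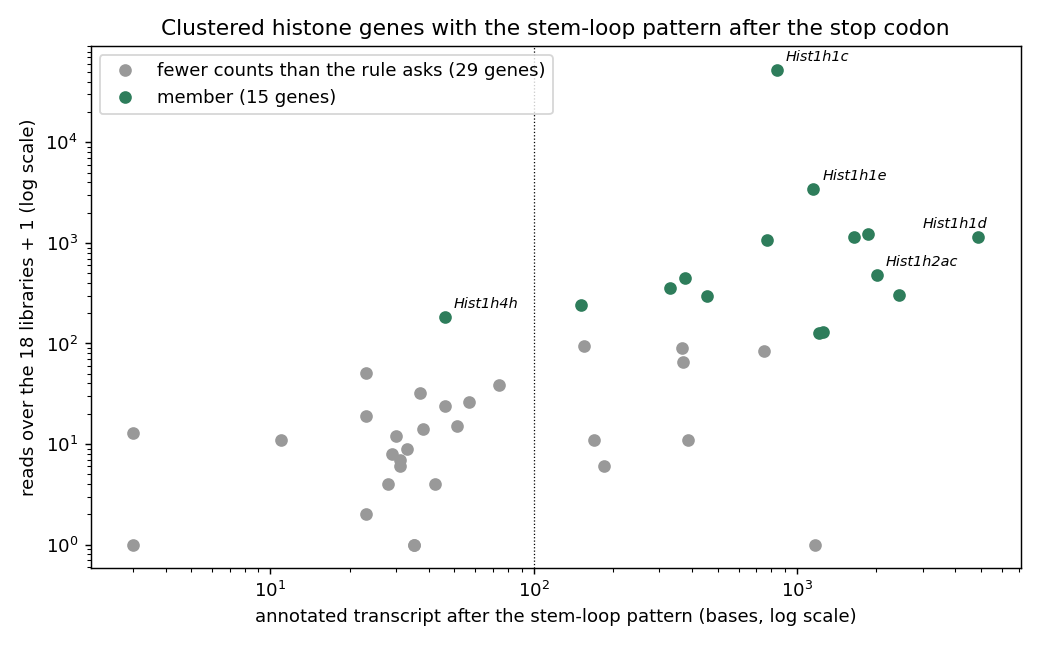
Each point is 1 of the 44 clustered histone genes with the stem-loop pattern: annotated bases after it (horizontal, log scale) against reads summed over 18 libraries plus 1 (vertical, log scale). Members (15, green) lie to the right of the dotted line at 100 bases except Hist1h4h, whereas 21 of the 29 non-members (grey) lie to the left.

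Promoters were read from the RefSeq table for GRCm38.p6, which held a window for 16 of the 19 members, and searched over 250 bases before the start on both strands. The TATAAA box was present for 7 of 16 members and in 12.4% of all 32851 windows, and CCAAT for 12 members and in 33.8%. The octamer ATTTGCAT was present for 4 members and in 1.6%. AAACACA, known as the H1 box, was present for 4 members, which were the 4 H1 genes, and in 6.25% of all windows. The 150 bases before the start of the most abundant H1 members are printed because these genes responded in the same direction in GFP+ bone. Capitals mark the H1 box, the CCAAT box and, in Hist1h1e only, the TATA box, which do not overlap each other.
Hist1h1c, chr13:23738657-23738806, plus strand: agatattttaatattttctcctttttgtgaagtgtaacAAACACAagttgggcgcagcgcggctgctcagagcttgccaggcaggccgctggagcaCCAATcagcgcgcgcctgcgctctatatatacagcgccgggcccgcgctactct
Hist1h1e, chr13:23622559-23622708, minus strand: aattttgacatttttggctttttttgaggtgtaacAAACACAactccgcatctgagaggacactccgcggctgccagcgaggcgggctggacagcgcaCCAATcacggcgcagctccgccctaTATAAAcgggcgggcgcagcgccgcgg
A match describes letters and does not show a bound factor. Hist1h1b and Hist1h1d also hold the H1 box and CCAAT, and neither was called in GFP+ bone in the reported fit (log2 -0.46 and 0.11).

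Hist1h2ac and Hist1h2bc are transcribed away from each other, with 250 bases between their annotated starts. Of that shared upstream stretch, 239 bases are printed on the Hist1h2ac strand (chr13:23683960-23684198, minus), with CCAAT and the octamer on either strand and TATAAA in capitals. It is shown because both genes rose in knockout GFP+ bone and both fell in knockout marrow. They did not move together throughout. In control GFP+ bone against control marrow, Hist1h2ac was higher (log2 0.95) and Hist1h2bc lower (-0.68). In knockout GFP- bone only Hist1h2bc was called. The marrow call of Hist1h2ac held in 13 of 18 runs that left out 1 library. Neither marrow fall was called after the correction for transcript length given below.
Hist1h2ac and Hist1h2bc, shared upstream stretch: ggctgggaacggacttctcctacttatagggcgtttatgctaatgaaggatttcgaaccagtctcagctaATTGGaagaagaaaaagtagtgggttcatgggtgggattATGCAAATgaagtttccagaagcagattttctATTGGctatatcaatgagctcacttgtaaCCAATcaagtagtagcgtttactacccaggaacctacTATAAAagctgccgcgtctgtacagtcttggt

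Library totals ran from 16443595 to 27160257 reads assigned to genes, and 18486 to 20237 genes had at least 1 read. Members together held 1578 to 11119 reads per library, and the 48 non-members together 17 to 90. A count of 0 allows up to 3 reads, or 0.0966 to 0.216 CPM, the usual scaling of reads to the size of the library; this covers counting error only, since reads carry no molecular identifiers. Knockout and control ranges of Pth1r, the targeted gene, did not overlap: 318 to 373 against 541 to 581 CPM in marrow, 2725 to 4038 against 4481 to 5035 in GFP+ bone, and 1031 to 1398 against 1669 to 1911 in GFP- bone. Much of the transcript thus remained in each knockout group. Over all genes tested, 28.6%, 28.8% and 29.7% were lower without overlap in these comparisons. Of the subsets, 9 marrow stroma markers summed to 32684 CPM of the library total in control marrow against 410 in GFP+ bone and 1607 in GFP- bone. The 8 osteoblast markers summed to 178558, 47362 and 237473 CPM, lowest in GFP+ bone. Most of this sum was Col1a1, at 141372, 36276 and 231871 CPM on the scale used for single genes below. Alpl and Runx2 were instead lowest in marrow, at 1390 and 42.2 CPM against 2321 and 49.1 in GFP+ bone. The other markers on this list were lowest in GFP+ bone. GFP+ bone also carried chondrocyte markers, with 5 genes summing to 109090 CPM in controls and 242423 in knockouts. In bulk libraries such as these, fewer cells of a type and less RNA per cell cannot be told apart.

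Hist1h1c, which encodes the linker histone H1.2, made up 53.4% to 77.0% of all member reads in each library. Over 18 libraries its mean was 142.57 CPM after scaling by edgeR's trimmed mean of M-values (TMM), the scale used for single genes below. Hist1h2bc, an H2B gene, followed at 31.3 and Hist1h1e, which encodes H1.4, at 9.30 CPM. Per kilobase of counted exon, the order at the top was the same: 91.4 CPM per kb for Hist1h1c, 27.1 for Hist1h2bc and 4.82 for Hist1h1e. Next on that scale came Hist1h4d, an H4 gene, at 2.43 and Hist1h2ak, an H2A gene, at 2.30. Hist1h2be, rank 4 in CPM, was rank 13 per kb, with counted exons of 4446 bases. The order differed between groups: in control marrow Hist1h1e had a mean of 2.41 CPM, below Hist3h2a at 3.90 and Hist1h4d at 3.07, and Hist1h2be went from 0.92 there to 12.89 CPM in knockout GFP+ bone. The lowest were Hist2h4 at 0.332 CPM and Hist1h2bh at 0.318 CPM. Hist2h4 did not pass edgeR's filter on low counts, so 18 members were tested.

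The 19 members summed to 152 ± 29.9 CPM of the library total in control marrow, 250 ± 21.8 in control GFP+ bone and 133 ± 7.27 in control GFP- bone (SD, n = 3 each). The corresponding knockout sums were 152 ± 23.6, 421 ± 47.6 and 79.3 ± 11.98. The GFP+ knockout libraries lay from 381 to 474, above all 15 others. Without Hist1h1c the control sums were 66.1, 72.7 and 54.4 CPM and the knockout sums 43.3, 106 and 24.6 CPM. H1 genes gave 59.2% of the sum in control marrow and 82.1% in knockout GFP+ bone, the lowest and highest group shares.

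**Figure D2:**
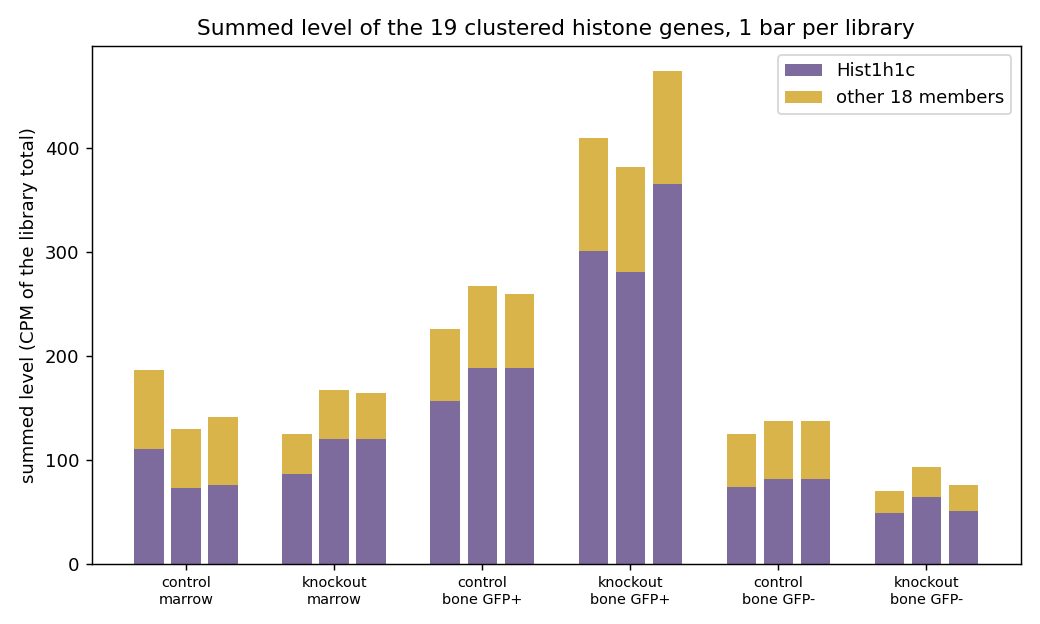
Bars give the summed level of the 19 members in each library, in CPM of the library total, split into Hist1h1c and the other 18 members; each group has 3 libraries. The knockout GFP+ bars stand highest, between 381 and 474 CPM, and the knockout GFP- bars lowest, between 69.9 and 92.8 CPM.

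In GFP+ bone, 5 of the 18 members tested were higher in the knockout and 2 were lower (edgeR quasi-likelihood test, Benjamini-Hochberg adjusted p under 0.05). Of all 15516 genes tested, 26.0% were higher and 25.3% lower, 51.3% in all, so the number of members called was not above that background. The 5 that rose were Hist1h1c, Hist1h1e, Hist1h2ac, Hist1h2bc and Hist1h2be, and the 2 that fell were Hist1h2ae and Hist1h4d. For these 7 the knockout and control libraries did not overlap; over all genes 28.8% were higher and 28.8% lower without overlap. The median log2 fold change of the members was -0.40, against 0.03 for all genes.

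The H1 genes changed unequally in GFP+ bone. Hist1h1c was at 145.75, 172.81 and 174.23 CPM in the controls and 373.31, 332.85 and 433.46 CPM in the knockouts. Every knockout library was above every control library, a rise of 2.31-fold (log2 1.21 ± 0.14 SE, edgeR adjusted p 1.18e-06). Hist1h1e rose from 11.48, 17.68 and 14.39 CPM to 28.51, 25.27 and 28.14 CPM, 1.88-fold (log2 0.91 ± 0.17, edgeR adjusted p 0.000208). Its groups were likewise apart. Hist1h1b, which encodes H1.5, was at 3.53, 3.39 and 2.17 CPM in controls and 1.78, 2.42 and 2.59 CPM in knockouts. These groups overlapped, and the log2 difference of -0.46 did not pass the test (95% interval -1.05 to 0.12). Hist1h1d, which encodes H1.3, stayed between 5.80 and 7.75 CPM in controls and 5.87 and 10.15 in knockouts, a log2 difference of 0.11 (95% interval -0.50 to 0.72).

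Both abundant H2B genes rose in GFP+ bone. Hist1h2bc was at 22.92, 23.13 and 20.60 CPM in controls and 73.56, 59.31 and 59.52 in knockouts. The rise was 2.89-fold (log2 1.53 ± 0.14, edgeR adjusted p 7.99e-08), and the controls varied little. Hist1h2be rose from 3.88, 2.25 and 4.04 CPM to 11.28, 14.65 and 12.74 CPM, the largest rise among the members (log2 1.93 ± 0.21, edgeR adjusted p 3.72e-07). Annotated exons of Hist1h2be and Hist1h1e share 496 bases on the same strand (chr13:23620629-23621124), 11.2% of the exon bases of Hist1h2be and 25.7% of those of Hist1h1e, so reads there cannot be assigned to either gene alone. Hist1h2bh, another H2B gene, held 8, 0 and 0 reads in controls and 1, 0 and 0 in knockouts. No fold is given for it.

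The H2A genes went opposite ways. Hist1h2ac was at 0.95, 2.25 and 1.83 CPM in controls and 3.52, 3.01 and 3.60 in knockouts. The groups were apart (log2 1.01 ± 0.32, edgeR adjusted p 0.0124), but the first control library lay well below the others. Without control GFP+ replicate 1 the log2 change was 0.71 and the adjusted p 0.0824, and DESeq2 gave an adjusted p of 0.0606. Hist1h2ae fell from 1.10, 1.74 and 1.25 CPM to 0.27, 0.19 and 0.65 CPM, a log2 change of -1.996 ± 0.49 (edgeR adjusted p 0.00191). Its knockout libraries held only 4 to 9 reads. Hist3h2a, an H2A gene of the Hist3 cluster, was at 2.74, 2.01 and 2.79 CPM in controls and 1.32, 1.70 and 2.45 in knockouts. The ranges overlapped and the difference did not pass the test (log2 -0.51, 95% interval -1.303 to 0.28). Hist3h2a shares 708 exon bases with Trim17 on the same strand.

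Of the H3 and H4 genes, Hist1h4d alone passed the test in GFP+ bone. It was at 2.93, 6.47 and 4.96 CPM in controls and 1.42, 2.13 and 2.52 in knockouts, a log2 change of -1.28 ± 0.33 (edgeR adjusted p 0.00303). The lowest control was close to the highest knockout. Hist2h3c2, the H3 member, was at 1.18, 1.10 and 1.11 CPM in controls and 0.37, 0.63 and 1.295 in knockouts. One knockout library exceeded all controls, and the difference did not pass (log2 -0.70, 95% interval -1.73 to 0.34). Hist1h4i was at 1.37, 0.51 and 1.01 CPM against 0.73, 0.68 and 0.94, with overlapping groups.

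**Figure D3:**
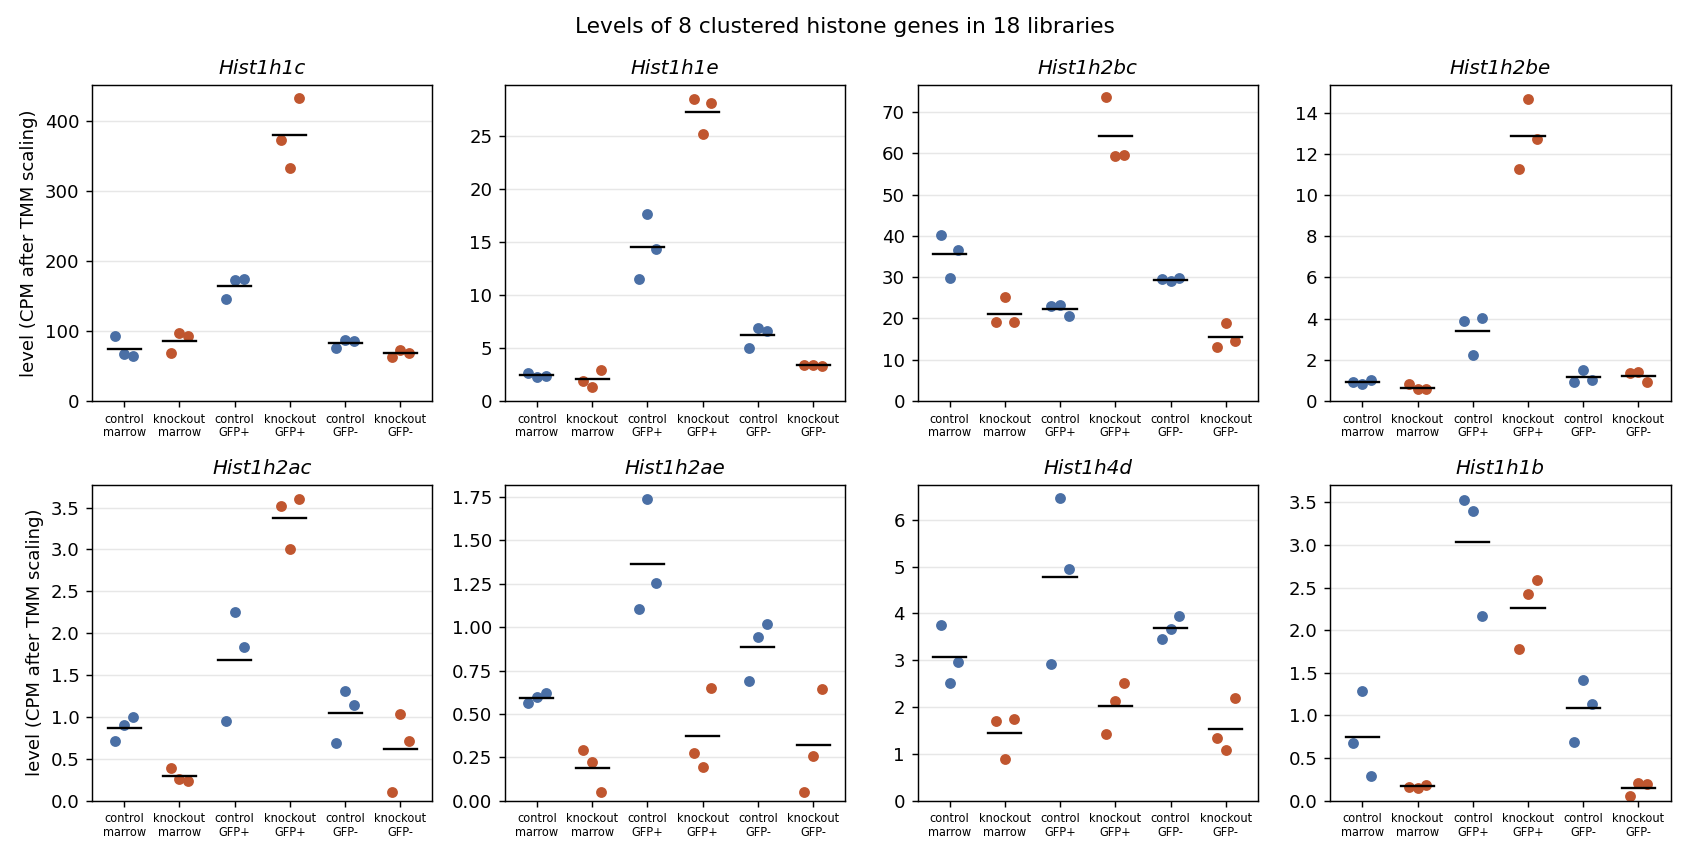
Points are single libraries (3 per group; blue control, orange knockout), lines are group means, and the vertical axes give CPM after TMM scaling from 0 on a separate scale for each of 8 members. Hist1h1c, Hist1h1e, Hist1h2bc, Hist1h2be and Hist1h2ac are highest in knockout GFP+ bone, whereas Hist1h2ae, Hist1h4d and Hist1h1b are highest on average in control GFP+ bone.

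In marrow, no member was called higher in the knockout and 6 of 18 were called lower. Of all genes tested, 47.9% were called, 23.1% higher and 24.8% lower. No member was higher at an unadjusted p under 0.05 (0 members), and DESeq2 called 0 higher. The 6 were Hist1h1b, Hist1h2ac, Hist1h2ae, Hist1h2bc, Hist2h3c2 and Hist1h4d. Without overlap of the libraries, 11 members were lower, against 28.6% of all genes. The median log2 change was -0.92 over the members and -0.04 over all genes, and 17 of the 18 were below 0.

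Hist1h2bc was at 40.32, 29.85 and 36.64 CPM in control marrow and 19.19, 25.10 and 19.22 CPM in knockout marrow. The groups were apart, with a fall of 1.68-fold (log2 -0.75 ± 0.14, edgeR adjusted p 0.000295), and this call alone held when each of the 18 libraries was left out in turn. Hist1h4d went from 3.74, 2.52 and 2.95 CPM to 1.71, 0.90 and 1.74 CPM (log2 -1.10 ± 0.35, edgeR adjusted p 0.0135). Its groups were apart, but without control marrow replicate 1 the adjusted p was 0.0724 and without knockout marrow replicate 2 it was 0.0726. Hist2h3c2 was at 1.35, 0.98 and 2.43 CPM against 0.52, 0.78 and 0.89 CPM (log2 -1.12 ± 0.43, edgeR adjusted p 0.0361). Control replicate 3 was the highest, and without it the log2 change was -0.72 (adjusted p 0.218); the call was also lost without knockout replicate 1 (0.149) or 2 (0.0621).

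Hist1h1b was at 0.67, 1.28 and 0.29 CPM in control marrow and 0.16, 0.15 and 0.19 CPM in knockout marrow. Its knockout libraries held 4 to 5 reads each, and the log2 change of -2.17 ± 0.60 (edgeR adjusted p 0.00488) became -1.58 without control replicate 2 (adjusted p 0.0645). Hist1h2ac fell from 0.71, 0.90 and 1.001 CPM to 0.39, 0.26 and 0.23 CPM (log2 -1.49 ± 0.56, edgeR adjusted p 0.0365). Leaving out control marrow replicate 2 or 3, or any 1 of the 3 knockout marrow libraries, ended this call (adjusted p 0.0531 to 0.0959). Hist1h2ae fell by 1.52 on the log2 scale (edgeR adjusted p 0.043), a call lost in 8 of the 18 runs that leave out 1 library. With DESeq2, the adjusted p was 0.0513 for Hist1h2ae and 0.0639 for Hist2h3c2. The number of members lower dropped from 6 to 3 without control marrow replicate 2, control marrow replicate 3 or knockout marrow replicate 2. Leaving out control marrow replicate 1 added Hist1h1c as higher (log2 0.38, adjusted p 0.0383).

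Hist1h1c was the 1 member tested whose log2 change in marrow was above 0. It was at 92.13, 66.46 and 64.70 CPM in controls and 67.99, 96.47 and 92.36 in knockouts. The groups overlapped, and the log2 difference of 0.20 did not pass the test (95% interval -0.11 to 0.50). Hist1h1e was at 2.62, 2.27 and 2.33 CPM against 1.84, 1.31 and 2.96, overlapping also (log2 -0.29, 95% interval -0.88 to 0.31). For Hist1h2be the values were 0.94, 0.81 and 1.001 against 0.81, 0.56 and 0.56 CPM. Its log2 difference of -0.48 had an interval from -1.34 to 0.39.

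In GFP- bone, no member was called higher and 11 of 18 were called lower. Of all genes tested, 47.1% were called, 21.5% higher and 25.7% lower. At an unadjusted p under 0.05, 0 members were higher, and DESeq2 called 0 higher. The median log2 change was -0.9998 over the members and -0.07 over all genes, and without overlap 0 members were higher and 10 lower, against 24.7% and 29.7% of all genes. Of the 4 H1 members, 3 fell, with 2 of 4 H2A, 2 of 4 H2B, the H3 member and 3 of 5 tested H4 members.

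Hist1h2bc had the smallest p in GFP- bone. Its controls were at 29.43, 29.02 and 29.66 CPM and its knockouts at 13.18, 18.76 and 14.47 CPM. The knockouts were all well below the tight controls, a fall of 1.89-fold (log2 -0.92 ± 0.15, edgeR adjusted p 7.05e-05). Hist1h1e went from 5.02, 6.87 and 6.65 CPM to 3.41, 3.40 and 3.30 CPM (log2 -0.88 ± 0.25, edgeR adjusted p 0.00682). No library overlapped. Hist1h1b, at 0.69, 1.42 and 1.14 CPM in controls, held 1, 4 and 3 reads in the knockout libraries, which is 0.05, 0.21 and 0.19 CPM. Its log2 change was -2.85 ± 0.66 (edgeR adjusted p 0.00121), the furthest from 0 among members called in the 3 knockout comparisons. Hist1h4d went from 3.45, 3.67 and 3.96 CPM to 1.34, 1.08 and 2.20 CPM (log2 -1.297 ± 0.38, edgeR adjusted p 0.00864), with no overlap.

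Those 4 calls held with each of the 18 libraries left out. The other 7 did not. Hist1h1d (log2 -1.79) had controls at 0.94, 3.99 and 1.56 CPM and knockouts at 1.03, 0.10 and 0.84 CPM. These overlapped, and without control GFP- replicate 2, the highest, the log2 change was -0.95 (edgeR adjusted p 0.237); the call was also lost without knockout replicate 2 (0.097). Hist1h4i (log2 -1.56) was at 1.57, 1.05 and 1.86 CPM against 0.36, 0.67 and 0.45, apart, and lost its call without control replicate 3 (edgeR adjusted p 0.0688) or knockout replicate 1 (0.0713). Hist2h3c2 (log2 -1.08, edgeR adjusted p 0.0487) was at 2.45, 1.57 and 2.28 CPM against 1.09, 0.46 and 1.49 and lost its call in 12 of 18 such runs. Hist1h2ae, Hist1h2ak, Hist1h2bh and Hist1h4c lost theirs in 4 to 6. DESeq2 did not call Hist1h2ae (adjusted p 0.0786), Hist1h2bh (0.069) or Hist2h3c2 (0.114). The count of members lower was 6 without control replicate 2, 7 without control replicate 3, 5 without knockout replicate 1 and 6 without knockout replicate 2.

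Hist1h1c was at 76.37, 87.75 and 85.40 CPM in control GFP- bone and 62.74, 72.41 and 69.07 CPM in knockouts. The knockouts were all lower, but the log2 difference of -0.29 did not pass the test (95% interval -0.60 to 0.02). Hist1h2be, at 0.94, 1.52 and 1.02 against 1.34, 1.39 and 0.90 CPM, overlapped, with a log2 difference of 0.07 (95% interval -0.77 to 0.90). Hist1h2ac was at 0.69, 1.31 and 1.14 against 0.10, 1.03 and 0.71 CPM. Its difference did not pass either (log2 -0.80, 95% interval -1.93 to 0.34).

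**Figure D4:**
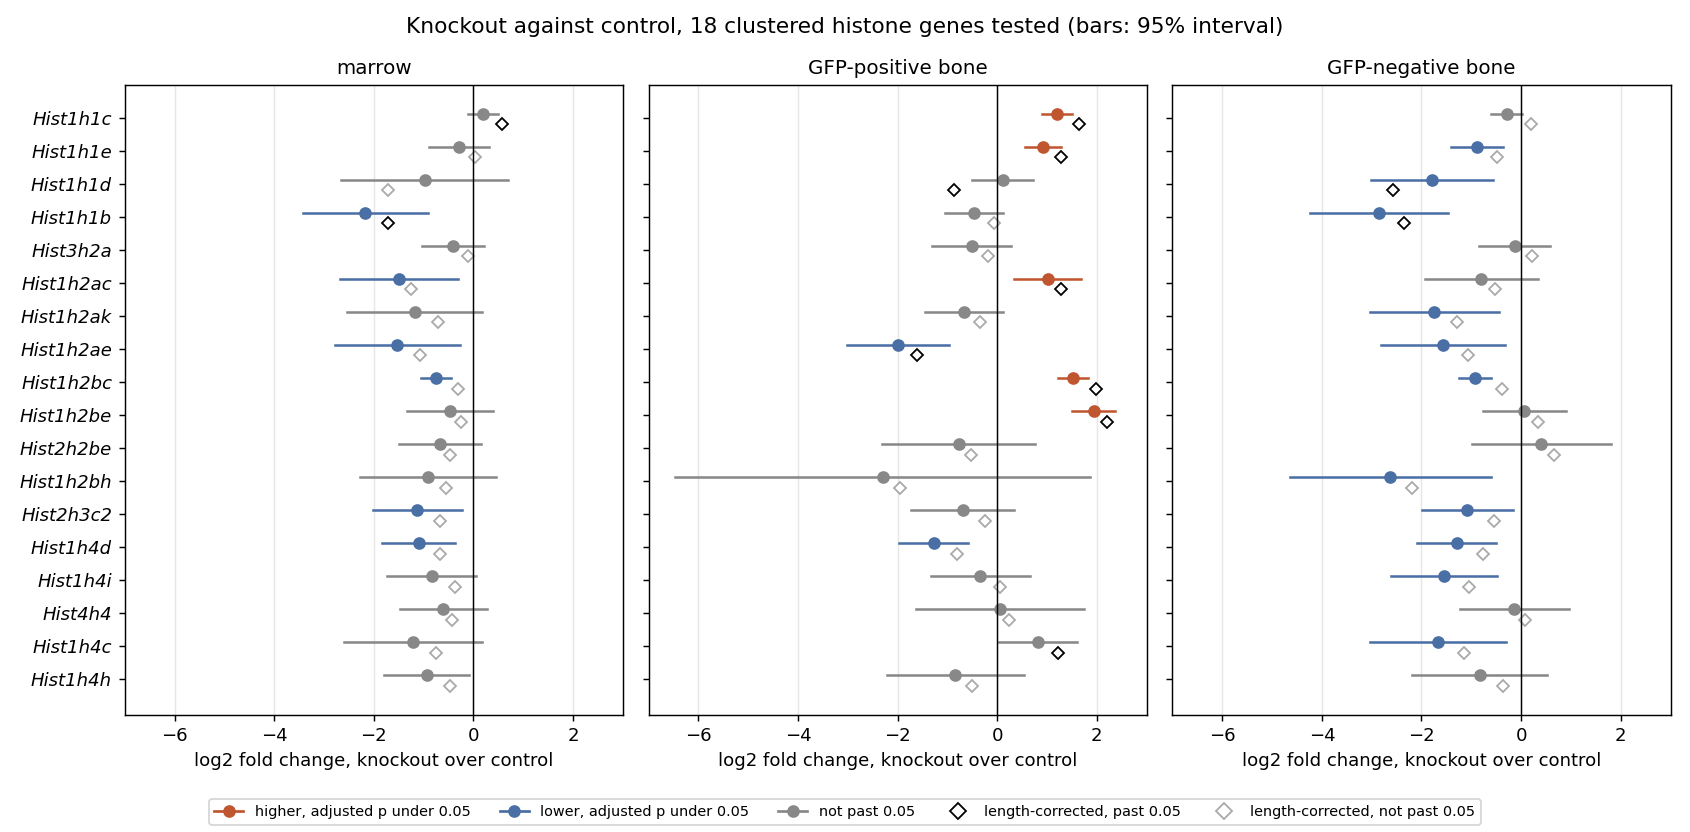
Circles with bars give the log2 fold change of knockout over control with its 95% interval for 18 members in the 3 subsets (horizontal axis), coloured by call; open diamonds give the value after the length correction, black where past an adjusted p of 0.05. The 5 members called higher in GFP+ bone lie to the right of 0 in both forms, whereas most blue circles in marrow and GFP- bone have grey diamonds nearer 0.

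The knockout differences depended on transcript length across all genes, and this bears on the members, whose annotated transcripts had a median of 1560 bases. Over 15511 genes, the log2 change correlated with the log2 length of the longest transcript with Spearman's rho of 0.406 in marrow, 0.437 in GFP+ bone and 0.444 in GFP- bone, across genes and not replicates. After each library's length trend had been removed, marrow called 1 member higher (Hist1h1c, log2 0.58, edgeR adjusted p 0.00381) and 1 lower (Hist1h1b, log2 -1.71, adjusted p 0.0337), in place of 0 and 6. Hist1h2bc in marrow then had log2 -0.31 (adjusted p 0.107). GFP- bone called 0 higher and 2 lower (Hist1h1b at -2.35 and Hist1h1d at -2.58), in place of 0 and 11, and Hist1h2bc had log2 -0.39 (adjusted p 0.0682). GFP+ bone called 6 higher and 2 lower: Hist1h1c 1.64, Hist1h1e 1.28, Hist1h2ac 1.28, Hist1h2bc 1.99, Hist1h2be 2.20 and Hist1h4c 1.23 were higher, and Hist1h1d at -0.86 and Hist1h2ae at -1.60 lower. Hist1h4d was at -0.81 (adjusted p 0.0534). Which scale is nearer to the cells' content was not tested. The correction treats Hist1h1d as a long gene because its annotated transcript spans 7425 bases. It takes the longest annotated transcript of each gene, 2506 bases for Hist1h2be against 4446 counted exon bases. The length of the mRNAs present was not measured.

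Whether the knockout difference itself differed between subsets was tested as an interaction in the same fit. Against marrow, the difference in GFP+ bone was higher for 5 members and lower for 0; of all genes, 18.4% were called, 10.8% higher and 7.60% lower. None was lower at an unadjusted p under 0.05 (0 members) or by DESeq2 (0 members). The values were log2 2.50 ± 0.65 for Hist1h2ac (edgeR adjusted p 0.0112), 2.41 ± 0.47 for Hist1h2be (0.00165), 2.28 ± 0.20 for Hist1h2bc (5.6e-07), 1.20 ± 0.33 for Hist1h1e (0.0169) and 1.01 ± 0.20 for Hist1h1c (0.00212). Without knockout marrow replicate 2, Hist1h1e had log2 0.97 (adjusted p 0.0543). Of these, Hist1h2ac and Hist1h2bc had fallen in marrow and risen in GFP+ bone.

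Against GFP- bone, the difference in GFP+ bone was higher for 4 members and lower for 0, where 6.08% of all genes were called and 4.98% were higher. At an unadjusted p under 0.05, and by DESeq2, 0 members were lower. Hist1h2bc had log2 2.45 ± 0.21 (edgeR adjusted p 2.31e-06), Hist1h1c 1.499 ± 0.21 (0.000145), Hist1h1e 1.79 ± 0.30 (0.00104) and Hist1h2be 1.87 ± 0.46 (0.0196). Without control GFP- replicate 2, Hist1h2be had log2 1.61 (adjusted p 0.108). With the replicate numbers as a block, Hist1h1b was also higher (log2 2.40, edgeR adjusted p 0.0366), as it was by DESeq2 (log2 2.38, adjusted p 0.045). The length correction without the block kept both counts, 5 and 0, then 4 and 0. Between GFP- bone and marrow, 0 members were called in either direction, where 7.79% of genes were, 4.49% higher and 3.31% lower; at an unadjusted p under 0.05, 0 were higher and 1 lower (Hist1h1c, log2 -0.49), and DESeq2 called 0. All 3 interactions share knockout and control libraries with each other and with the comparisons above.

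Among controls, all 4 H1 members were higher in GFP+ bone than in either other subset. Against marrow, 8 members were higher and 5 lower, where 62.8% of all genes were called, 29.8% higher and 33.0% lower. Without overlap, 8 members were higher and 5 lower, against 32.7% and 34.9% of all genes. Hist1h1d was at 0.41, 0.68 and 0.67 CPM in marrow and 7.75, 5.80 and 7.75 in GFP+ bone (log2 3.60 ± 0.44, edgeR adjusted p 7.52e-07). The difference for Hist1h1e was log2 2.58 ± 0.22, for Hist1h1b 2.01 and for Hist1h1c 1.14. Lower in GFP+ bone were Hist1h2bc (log2 -0.68), Hist2h2be (-1.70), Hist4h4 (-2.22), Hist1h4h (-1.25) and Hist1h2bh. Hist1h2bh held 20, 9 and 17 reads in marrow and 8, 0 and 0 in GFP+ bone, and no fold is given for it. Of the 13 calls, 9 held with each library left out; those of Hist1h2ac, Hist1h2ae, Hist1h2bh and Hist1h4h did not. Hist2h2be and Hist4h4 lie outside the Hist1 cluster and were at 1.12, 1.24 and 1.62 CPM and at 1.35, 2.10 and 0.62 CPM in control marrow. In control GFP+ bone they were at 0.46, 0.67 and 0 CPM and at 0.27, 0.16 and 0.48 CPM. Neither gene's groups overlapped.

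Against GFP- bone, control GFP+ bone was higher for 5 members and lower for 3, where 40.0% of all genes were called. The 5 were Hist1h1b (log2 1.48), Hist1h1c (0.98), Hist1h1d (1.66), Hist1h1e (1.22) and Hist1h2be (1.51), and each held with every library left out. The 3 lower, Hist1h2bc (-0.40), Hist4h4 (-1.72) and Hist1h2bh (6, 26 and 5 reads in GFP- bone), did not: 0 or 1 members were called lower without any 1 of the 6 libraries compared. Between control GFP- bone and marrow, 2 members were higher and 1 lower, where 39.3% of genes were called. Without overlap, 3 were higher and 3 lower, against 26.9% and 23.3% of all genes. Hist1h1e (log2 1.36) and Hist1h1d (1.95) were higher and Hist2h2be (-1.74) lower. Without control GFP- replicate 2, Hist1h1d had an edgeR adjusted p of 0.168 and Hist2h2be 0.0761, leaving 1 higher and 0 lower.

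Other genes of the histone pathway were read from lists, to be set beside the shares of all genes called higher and lower, 23.1% and 24.8% in marrow, 26.0% and 25.3% in GFP+ bone and 21.5% and 25.7% in GFP- bone. Of 11 histone genes outside the clusters, 1 was higher and 8 lower in knockout marrow, 2 and 7 in GFP+ bone and 2 and 8 in GFP- bone. Their median log2 changes were -0.45, -0.54 and -0.62. H2afz, which encodes H2A.Z, fell in all 3 (log2 -1.33, -0.95 and -1.02, with edgeR adjusted p 4.47e-09, 8.36e-08 and 5.38e-08). Cenpa, the centromeric H3, fell also (-1.38, -1.06 and -1.92). H3f3b, which encodes H3.3, rose in GFP+ bone by log2 0.74 ± 0.11. After the length correction the counts were 2 and 4, 4 and 5, and 3 and 6. Log2 changes of single genes from these and the following lists are given without the length correction.

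Of 15 genes for histone gene transcription and histone mRNA processing, 7 were higher and 3 lower in marrow, 5 and 5 in GFP+ bone and 5 and 3 in GFP- bone. Upf1, a helicase that also acts in histone mRNA decay, was higher in all 3 (log2 1.397, 1.65 and 1.32). Npat, a coactivator of clustered histone genes, was higher by 1.08, 1.37 and 0.60. Slbp, the protein that binds the stem-loop, did not pass in any subset (log2 -0.23, -0.23 and -0.07); it was named after its values were seen. Of 17 histone chaperone genes, 3 were higher and 6 lower in marrow, 3 and 7 in GFP+ bone and 3 and 8 in GFP- bone. After the length correction the chaperone counts were 4 and 3, 2 and 3, and 2 and 3, and those of the processing genes 5 and 3, 4 and 7, and 3 and 4.

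Of 24 S phase genes, 1 was higher and 18 lower in marrow, 3 and 13 in GFP+ bone and 0 and 18 in GFP- bone, with median log2 changes of -0.67, -0.42 and -0.95. Mcm5, a subunit of the replicative helicase, fell by 1.20, 0.67 and 1.61 on the log2 scale, and Tyms, which makes thymidylate, by 0.83, 1.07 and 1.503. Of 15 mitosis genes, 0 were higher and 10 lower in marrow, 4 and 7 in GFP+ bone and 0 and 12 in GFP- bone. Cdk1, the mitotic kinase, fell by 1.31, 0.79 and 2.11. Top2a (log2 1.09), the topoisomerase of dividing cells, and Cenpf (3.15), a kinetochore protein, were higher in GFP+ bone. After the length correction 2 S phase genes were higher and 6 lower there, 1 and 12 in marrow and 0 and 17 in GFP- bone. The mitosis counts were then 4 and 2 in GFP+ bone, 0 and 11 in marrow and 0 and 12 in GFP- bone.

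Markers of other cell types moved in the same comparisons. Chondrocyte markers moved with the GFP+ rise: their sum was 100126 to 123411 CPM in control GFP+ libraries and 235220 to 249208 in knockouts, with 4 of 5 genes higher, 1 lower and none at 0. In marrow 3 were higher and 1 lower, and in GFP- bone 0 were higher and 3 lower. Marrow stroma markers were higher for 8 of 9 genes in marrow, 8 in GFP+ bone and 9 in GFP- bone, with mean sums going from 32684 to 60521, 410 to 756 and 1607 to 3895 CPM. Osteoblast markers were lower for 7 of 8 genes in marrow, where the mean sum went from 178558 to 82544 CPM. They were higher for 4 and lower for 1 in GFP+ bone (47362 to 47535 CPM), and higher for 3 and lower for 0 in GFP- bone (237473 to 311612 CPM). Blood cell markers varied between libraries of 1 group. The 10 erythroid markers summed to 44.7 to 503 CPM in control GFP- bone and 65.7 to 522 in knockout GFP+ bone, against 205 to 235 in control GFP+ bone. The 8 neutrophil markers ran from 4.35 to 138 CPM in control GFP- bone. The 5 megakaryocyte markers ran from 2.69 to 274 CPM in knockout marrow. The part of all these markers in the member levels was not tested, nor was that of proliferation.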

How the data were processed

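Gene counts of 18 mRNA libraries from sorted mouse cells were analysed as deposited. Per the submitters' processing notes, the authors used STAR, featureCounts, DESeq2 and the mm10 genome, and the deposited values are whole-number counts of reads per gene. Strand setting, treatment of multimapping reads and versions are not given in the sources used here. Symbols, lengths and coordinates came from GENCODE M21 (54409 of 54446 IDs matched without version) and promoters from RefSeq GRCm38.p6.

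The members and lists were chosen with earlier results of these data known. Counts were tested with edgeR 4.0.16 in R 4.3.3 (TMM scaling, filterByExpr with a minimum count of 10 and total of 15, robust quasi-likelihood fit, 1 mean for each of 6 groups, 12 residual degrees of freedom), two-sided, with Benjamini-Hochberg adjustment over 15516 genes and a threshold of 0.05. An edgeR fit with trended dispersion was run before this one, and its member results were seen. It called fewer members in each knockout comparison and is given at the end. Alternatives used DESeq2 1.42.0, library totals alone, no filter, only the groups compared, a replicate block, a length correction (lowess, span 0.3) and leaving out each library. The block was the replicate number, shared by both genotypes in the knockout comparisons and set within each genotype in the others. The scripts were tested on simulated data. Python 3.11.15 and pandas 2.3.3 prepared the tables. A chi-square test of counts over genes gave 14.9 to 55.9 per degree of freedom for libraries of 1 group. They thus differed by more than counting error, so none was the same library sequenced again. The test cannot tell separate preparations from 1 mouse from separate mice.

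Values per library are given for the 2 most abundant members of each class, called members with the smallest p in each comparison, and others needed to show a result.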

Additional observations from a re-analysis of the deposited data

Results flagged for a closer look

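For 5 members the knockout difference in GFP+ bone exceeded that in marrow by edgeR's interaction test: log2 1.01 for Hist1h1c, 1.20 for Hist1h1e, 2.50 for Hist1h2ac, 2.28 for Hist1h2bc and 2.41 for Hist1h2be. For 4 it exceeded that in GFP- bone: log2 1.5 for Hist1h1c, 1.79 for Hist1h1e, 2.45 for Hist1h2bc and 1.87 for Hist1h2be.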

How the results depend on the processing

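Directions in GFP+ bone for the 5 members that rose were kept under each alternative run, but not every call was. DESeq2 and the edgeR fit with trended dispersion each called 4 higher there. Hist1h2ac lost its call without control GFP+ replicate 1 (edgeR adjusted p 0.0824). Most falls in marrow and GFP- bone lost their call after the length correction, where Hist1h2bc kept its direction in both. Scaling by library totals alone moved the median log2 change of all genes to 0.0849 in marrow, -0.344 in GFP+ bone and -0.3 in GFP- bone, and 59.6%, 30.9% and 30.8% of calls were then higher. It gave 3 members lower in marrow, 5 in GFP+ bone and 3 higher in the GFP+ against marrow interaction, where Hist1h1c (log2 0.50) and Hist1h1e (0.68) lost their calls. It gave 1 lower in the GFP- against marrow interaction, 3 lower in control GFP- bone against marrow and 1 lower in control GFP+ against GFP- bone. Without the filter on low counts, 3 members were lower in marrow, 7 in GFP- bone and 1 in control GFP+ against GFP- bone, and DESeq2 also gave 1 there. With only the groups compared, 5 were lower in GFP- bone.

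The length correction, alone and with the replicate block, gave 1 member higher and 1 lower in marrow, 2 lower in GFP- bone and 3 lower in control GFP- bone against marrow. It turned the direction of Hist1h1e in marrow (0.0414, 0.0403 with the block), Hist1h4i in GFP+ bone (0.0581, 0.0477), Hist1h1c in GFP- bone (0.19, 0.19), Hist3h2a in GFP- bone (0.221, 0.223) and Hist4h4 in GFP- bone (0.0732, 0.0871), none of these called. It also turned Hist1h1d in GFP+ bone from 0.11 to -0.86, with and without the block, and there Hist1h1d was called lower. Library totals alone turned Hist1h1d and Hist4h4 in GFP+ bone to -0.27 and -0.32, not called. Hist3h2a in GFP- bone was at 0.00628 with DESeq2, 0.058 without knockout replicate 1 and 0.0781 without knockout replicate 2, and -0.55 without knockout replicate 3. Hist1h4i in GFP+ bone ran from -0.6576 without control replicate 2 to 0.0448 without control replicate 1. Hist1h2be in GFP- bone was at -0.17 with library totals, -0.0595 without control replicate 1, -0.0239 without control replicate 3, -0.0392 without knockout replicate 2 and 0.3289 without control replicate 2. The cause was not tested.

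Leaving out 1 library gave 0 to 1 members higher and 3 to 6 lower in marrow, 5 to 11 lower in GFP- bone, 0 to 1 lower in the GFP- against marrow interaction, 1 to 2 higher and 0 to 1 lower in control GFP- bone against marrow, and 0 to 3 lower in control GFP+ against GFP- bone. Summed levels after TMM scaling were 131.5 (control marrow), 231.5 (control GFP+ bone), 140.6 (control GFP- bone), 119.7 (knockout marrow), 507.6 (knockout GFP+ bone) and 98.75 CPM (knockout GFP- bone); without Hist1h1c the sums per library total were 66.08, 72.71 and 54.39 in control marrow, GFP+ and GFP- bone and 43.27, 106 and 24.63 in knockouts. A limit of 50 counts left 9 members.

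An edgeR fit with trended dispersion had been run first. The fit reported replaced it because an earlier account of these data describes the fit reported. Member results under both fits were seen. The trended fit was brought back as an alternative after seeing the data. It called fewer members: 0 higher and 4 lower in marrow, 4 and 2 in GFP+ bone, 0 and 8 in GFP- bone, and 0 lower in control GFP- bone against marrow. The fit reported did not pair libraries by replicate number. Over all tested genes, deviations of libraries with the same number correlated over 0.1 for 1 of 9 control pairs, 8 of 9 knockout pairs and 0 of 9 knockout and control pairs. For the 7758 more abundant genes 9, 9 and 2 did, so passing that limit depended on the genes used. The best match did not. In both gene sets it was the own number in 18 of 18 comparisons between control subsets and 18 of 18 between knockout subsets. Between knockout and control it was so in 8 of 18 over all genes and 7 of 18 over the abundant ones. Subsets of 1 genotype with the same number thus varied together, which the reported subset comparisons and interactions leave out. The replicate block differed between comparisons. For knockout against control, each number was shared by both genotypes, and the counts were unchanged (0 and 6, 5 and 2, 0 and 11). That block pairs knockout with control libraries, so it does not check the pairing within a genotype. For the interactions and control comparisons the block was the number within each genotype. There Hist1h1b was added to the GFP+ against GFP- interaction (log2 2.40, edgeR adjusted p 0.0366). Members under about 1 CPM rest on few reads, which limits their folds.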
